A study of Mus musculus with 10 samples.

Results

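The comparison was between a first and a repeat RNA sequencing library made from the same RNA, in each of 2 KO replicates. It used 4 of the 10 libraries of the series: all those labelled KO, as first or repeat, paired by replicate number. By the labels, each replicate number stood for 1 RNA extraction, so both libraries of a pair came from the same cells. Preparation, depth, any sequencing run and any change in the RNA before the repeat was made cannot be told apart within a pair. Every named gene of the normalized count table was a candidate. Of 17363 named genes, 12987 (74.8%) were tested, those that reached 10 normalized counts in 2 or more of these libraries.

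The cells were CD4+CD25- T cells, mostly conventional helper cells, sorted from mammary tumours of C57BL/6 mice at 23 weeks of age. All groups carried the PyMT transgene, which drives mammary tumours, and floxed Tgfbr2 alleles (Tgfbr2 fl/fl). KO mice also carried ThPOK-Cre, which acts in the CD4 T cell lineage, so that Tgfbr2, a receptor subunit for TGF-beta, is deleted in those cells. WT mice had no Cre, IL4-/- mice were labelled as lacking Il4, and IL4-/-KO mice as combining this with ThPOK-Cre. Each of these groups had 2 replicates, and 1 library for each of them outside KO. The labels do not say whether replicates came from separate mice, so spread between them may be partly technical, and they name no batch or sequencing run.

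The RNA was amplified before the library was made. In this kind of full-length amplification, reverse transcriptase copies polyadenylated RNA from an oligo-dT primer and adds a second primer site at the 5′ end of the molecule by template switching. The whole cDNA pool is then amplified by PCR, sheared and ligated to adaptors. A transcript present in few molecules can be lost at the copying step, and PCR can favour cDNAs by length or base composition. No molecular identifiers were used, so reads were not counts of molecules.

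The first libraries held 17181221 and 17204442 reads, and the repeats 29715400 and 28003231. The deeper repeats held fewer genes. In KO replicate 1, 14131 genes had at least 1 read in the first library and 12891 in the repeat; in KO replicate 2, 14421 and 12459. Drawn down to the smallest of the 4 totals, the repeats would be expected to show 12766 and 12322 genes. Genes with 1 to 10 reads numbered 1593 and 1537 in the first libraries and 798 and 853 in the repeats. Defining T cell genes were abundant in all 4 libraries: Cd3e, a subunit of the T cell receptor complex, had 25127 and 30578 normalized counts in the first libraries and 22475 and 33606 in the repeats.

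How closely 2 libraries of one RNA matched depended on the level of the gene. Within KO replicate 1, 62.1% of genes with a mean under 100 normalized counts were at least 2-fold apart, against 3.11% at 1000 to 10000 and 0.748% over 10000. Within KO replicate 2 these shares were 75%, 21% and 15.7%. At 1000 to 10000 the spread of the log2 differences, as a standard deviation estimated from the median absolute deviation, was 0.37 in replicate 1 and 0.76 in replicate 2. Counting error alone would give a median of 0.048 and 0.049 at that level, an amount that takes amplified reads as independent.

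The pairs were not alike. At 1000 to 10000 normalized counts, the first libraries of the 2 RNAs were at least 2-fold apart in 9.37% of genes, more than the 3.11% within replicate 1 and fewer than the 21% within replicate 2. The repeats of the 2 RNAs were that far apart in 33.8% of genes. Replicates of the other genotypes gave 24% in WT, 8.12% in IL4-/- and 5.54% in IL4-/-KO. Below 100 normalized counts, pairs of KO libraries from different RNAs had shares of 51.1% to 79.7%, a range that held the 62.1% and 75% within one RNA.

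**Figure D1:**
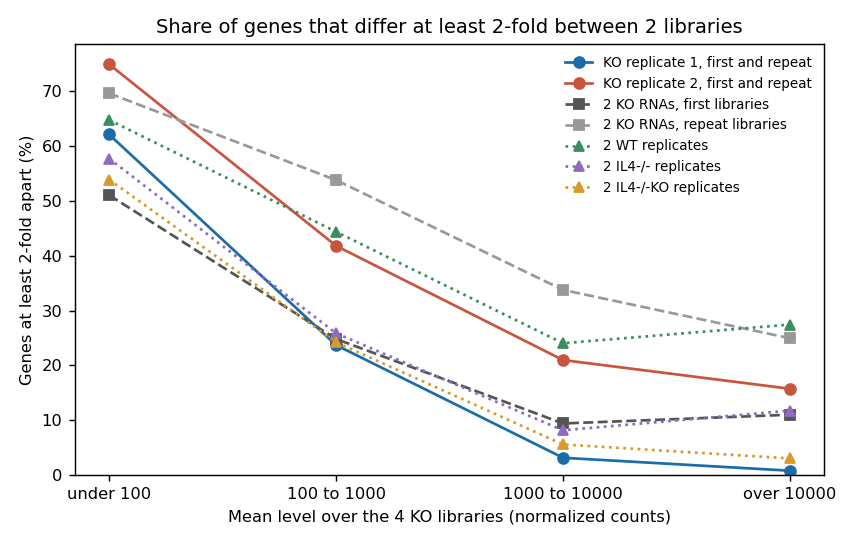
Share of the 12987 genes at least 2-fold apart between 2 libraries (y, %), by mean level over the 4 KO libraries in normalized counts (x, 4 classes). Solid lines join first and repeat libraries of one RNA, dashed lines compare the 2 KO RNAs and dotted lines the replicates of other genotypes. The share falls with level to 0.748% in KO replicate 1 but stays at 15.7% in KO replicate 2.

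No gene passed the test of repeat against first library, which fitted the replicate as a block in limma on log2(normalized count + 1). At an adjusted p under 0.05, 0 genes (0%) were higher and 0 (0%) were lower in the repeats. At an unadjusted p under 0.05, 444 (3.42%) were higher and 795 (6.12%) lower. The quasi-likelihood test of edgeR on the recovered reads also gave 0 and 0 (342 and 247 at an unadjusted p under 0.05), and DESeq2 gave 18 and 19. With 2 RNAs the fit had 1 residual degree of freedom, and genes were assigned by size of difference in what follows.

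By a 2-fold rule in both RNAs, 368 genes (2.83%) were higher in the repeats and 803 (6.18%) lower, so 31.4% of these genes were higher. Under quantile normalization the numbers were 785 and 442, and 64.0% were higher, so the balance of the directions depended on the scaling. KO replicate 1 alone had 1271 genes (9.79%) at least 2-fold higher and 1746 (13.4%) lower, and KO replicate 2 alone 1930 (14.9%) and 3281 (25.3%). In opposite directions, 459 genes (3.53%) were at least 2-fold higher in replicate 1 and lower in replicate 2, and 339 (2.61%) the reverse. Of all genes tested, 6728 (51.8%) were under 2-fold in both RNAs.

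The match between the pairs differed with level and with direction. Among the 4968 genes with a mean of 1000 normalized counts or more, 96 were at least 2-fold higher in the repeat of replicate 1. Of these, 51 (53.1%) were so in replicate 2, against 9.86% of all genes at that level, and 0 were at least 2-fold lower there. Of the 49 at least 2-fold lower in replicate 1, 14 (28.6%) were so in replicate 2, against 10.7%, and 3 were at least 2-fold higher. Among the 2528 genes under 100 normalized counts, 560 were at least 2-fold higher in the repeat of replicate 1. Of those, 120 (21.4%) were higher in replicate 2 and 327 (58.4%) lower, near the 19.5% and 55.4% of all genes at that level. Of the 1011 lower in replicate 1, 622 (61.5%) were lower in replicate 2. These 622 include genes at 0 in both repeats, for which the filter alone fixed this direction. The differences of the pairs had a Pearson correlation of 0.34 over the 4968 abundant genes and 0.090 over those under 100; these are descriptions across genes. The pairs share no library, but share the order of depth.

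**Figure D2:**
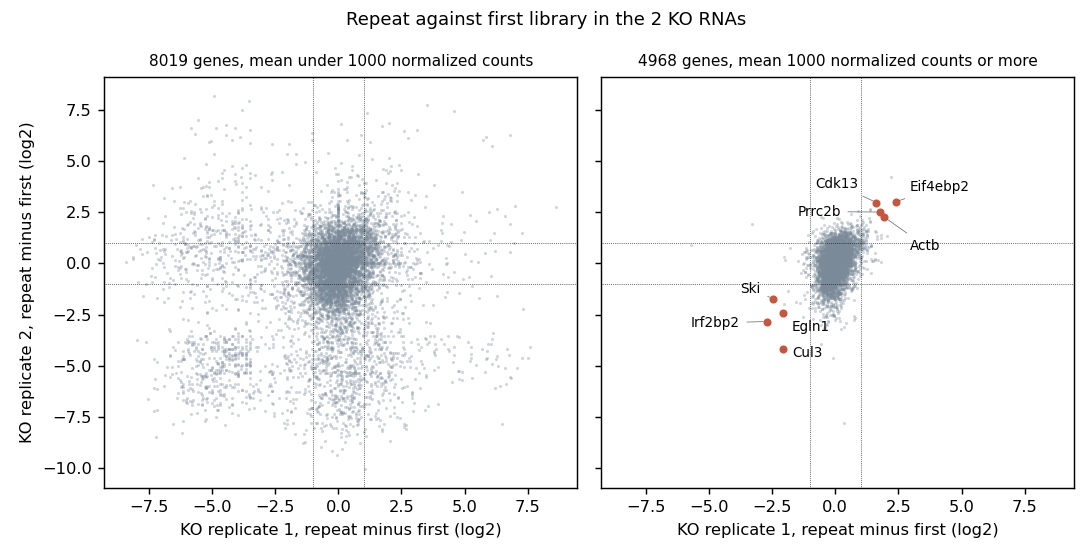
Repeat minus first library in KO replicate 1 (x) and KO replicate 2 (y), as log2 differences, 1 point per gene, with dotted lines at 2-fold. On the left, 8019 genes with a mean under 1000 normalized counts spread into all 4 corners; on the right, among 4968 abundant genes, 51 lie at least 2-fold higher and 14 at least 2-fold lower in both, with 8 of them named.

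The abundant genes at least 2-fold apart in both RNAs numbered 65, a level limit chosen after the data were seen: 51 were higher in the repeats and 14 lower. The gene with the smallest limma p was Irf2bp2 (chromosome 8, 126588296 to 126593986, mm10), which encodes a transcriptional corepressor that binds IRF2. It had 7259.8 and 8989 normalized counts in the first libraries and 1102 and 1255 in the repeats. Every repeat library was thus below every first library, by 6.59-fold and 7.16-fold. The log2 difference was -2.78 ± 0.27 (limma's moderated SE, n = 2 RNAs), and its limma adjusted p of 0.0774 missed the threshold. A moderated SE borrows its spread mostly from other genes and does not measure the spread between the 2 RNAs. Over the alternatives with both RNAs the adjusted p ran from 1.3e-15 with DESeq2 to 0.853 without the replicate block.

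Other abundant genes were lower in the repeats. Egln1, the prolyl hydroxylase PHD2 that marks HIF-alpha for degradation, had 5128 and 3605 normalized counts in the first libraries and 1216 and 673 in the repeats. Ski, a corepressor of SMAD transcription factors in TGF-beta signalling, had 3254 and 4448 against 587 and 1350.

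Cul3, the scaffold of a family of ubiquitin ligases, had 2488 and 1292 normalized counts in the first libraries and 589 and 69.0 in the repeats. Znrf2, a ubiquitin ligase, had 3842 and 3064 against 929 and 773. For both genes the groups did not overlap. Mbd2, which binds methylated DNA, had 9086 and 5526 in the first libraries and 3492 and 1445 in the repeats. All 14 genes of this kind were separate between first and repeat libraries, a separation that the 2-fold rule in these same libraries makes likely. The share over all genes at that level was not counted.

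Actb, which encodes beta-actin and often serves as a reference gene, was the most abundant of the genes higher in the repeats. It had 86538 and 100185 normalized counts in the first libraries and 331523 and 481017 in the repeats, 3.83-fold and 4.80-fold more. Its share of all reads was 0.343% and 0.443% in the first libraries and 1.31% and 1.82% in the repeats. Its log2 difference was 2.10 ± 0.59 (moderated SE, n = 2 RNAs, limma adjusted p = 0.512). Over the alternatives with both RNAs this adjusted p ran from 1.57e-18 with DESeq2 to 0.853 without the replicate block. Actg1, the gamma-actin gene, was 1.23-fold and 1.49-fold higher and had 33988 and 41342 normalized counts in the first libraries against 41765 and 61762 in the repeats. How reads shared by actin genes and their pseudogenes were counted is not given in the sources used here, so the Actb level is uncertain.

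Genes of translation, transcription and chromatin were among the rest. Eif4ebp2, a repressor of cap-dependent translation, had 316 and 323 normalized counts in the first libraries and 1654 and 2623 in the repeats. Cdk13, a kinase of transcription elongation, had 1132 and 1229 against 3507 and 9706. Prrc2b, which encodes a large RNA-binding protein, had 1623 and 1984 against 5569 and 11353.

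Kmt2d, a histone H3 lysine 4 methyltransferase, had 732 and 1014 normalized counts in the first libraries and 2188 and 3019 in the repeats. Lars2, the mitochondrial leucyl-tRNA synthetase, had 14762 and 28967 against 45813 and 65863. How multimapped reads were counted is not given in the sources used here, so the Lars2 level is uncertain. The 2-fold rule that chose these genes used the same libraries, so some separation was built in. Of these 5 genes, each had both repeats above both first libraries. Of the 51 abundant genes higher in the repeats, 45 were separate in this way, and the share over all genes at that level was not counted. An exception was Tigit, an inhibitory receptor of T cells, with 2940.4 and 604 in the first libraries and 6448 and 1259.8 in the repeats, where the RNAs differed more than the libraries.

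Other commonly used reference genes, listed after the data were seen, differed less or were lower. Gapdh, a glycolytic enzyme, was 1.24-fold and 1.47-fold higher in the repeats. B2m, the light chain of class I MHC, was at 0.860 and 0.467 of its first level. Hprt, of purine salvage, was at 0.896 and 0.350. Tbp, the TATA-binding protein, was at 0.401 and 0.656.

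The same 65 genes were then read in libraries that had no part in choosing them. IL4-/- and IL4-/-KO libraries were deep (28552482 to 33802781 reads), as the KO repeats were, and WT libraries shallow (17121030 and 18479090). Of the 51 genes higher in the repeats, 34 (66.7%) had both IL4-/- libraries above both WT libraries, against 12.6% of all 4968 genes at that level. In IL4-/-KO, 28 (54.9%) lay above WT, against 18.5%. Of the 14 lower in the repeats, 7 (50%) had both IL4-/- libraries below both WT libraries, against 22.2%, and 8 (57.1%) did so in IL4-/-KO, against 19.5%. These backgrounds were matched for level only. The 51 genes had a median transcript length of 5784 bases and GC content of 56.2%, and the 14 had 4471.5 and 46.0%. Over all genes tested these medians were 3014 and 50.3%. The part of length and GC content in this match was not tested.

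Single genes show the levels by group. Eif4ebp2 had 266 and 120.1 counts per library in WT, 1991 and 1903 in IL4-/-, and 1930.3 and 2003 in IL4-/-KO. Irf2bp2 had 10472 and 3833 in WT, and 1020 to 1585 in the 4 libraries labelled IL4-/- or IL4-/-KO. Genotype and the depth of the library cannot be told apart in the comparison of IL4-/- or IL4-/-KO with WT.

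Among genes of lower level this match was weaker. Of the 197 genes with a mean of 100 to 1000 that were at least 2-fold higher in both repeats, 63 (32.0%) had both IL4-/- libraries above WT, against 15.8% of all genes at that level. Of the 167 that were lower, 26 (15.6%) had both below, against 13.1%. Of the 622 lower genes under 100, 40 (6.43%) did, against 7.87%.

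**Figure D3:**
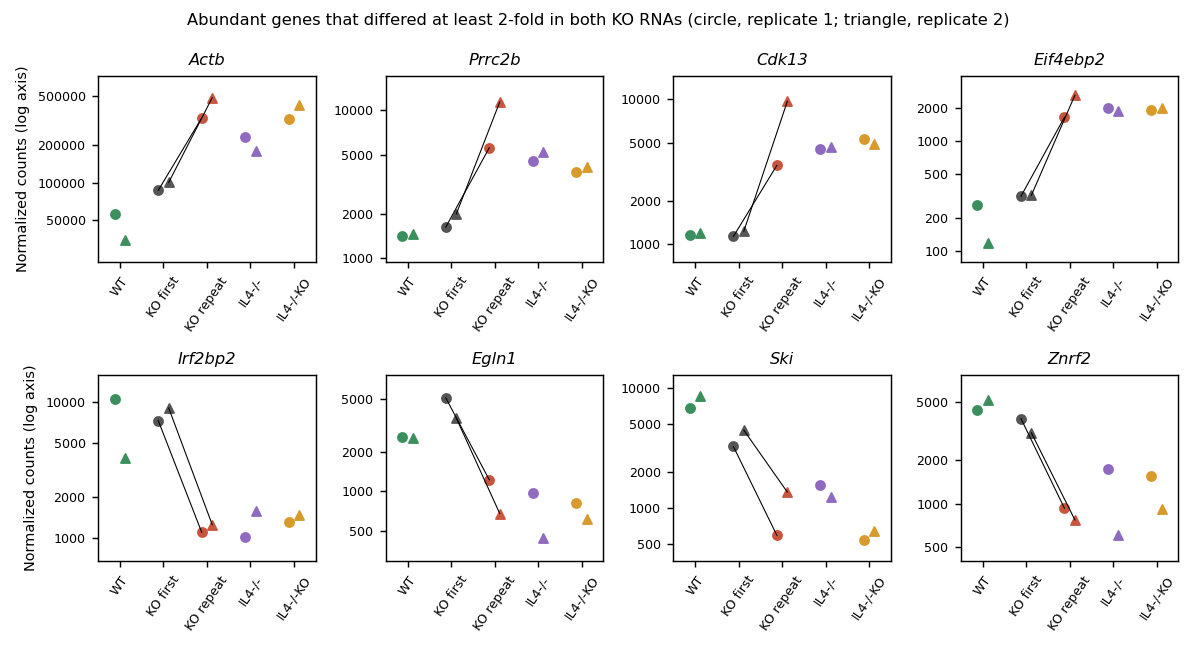
Normalized counts (log axis) of 8 abundant genes in all 10 libraries, by group (x), with circles for replicate 1, triangles for replicate 2 and lines joining the first and repeat library of one KO RNA. Actb, Prrc2b, Cdk13 and Eif4ebp2 are higher in the repeats, Irf2bp2, Egln1, Ski and Znrf2 lower, and in these genes, chosen after their values were seen, the IL4-/- and IL4-/-KO libraries lie beyond all WT and first KO libraries in the direction of the repeats.

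Many transcripts seen in a first library were not seen in its repeat. In KO replicate 1, 227 of the 11102 genes with at least 50 normalized counts in the first library had 0 reads in the repeat, and in KO replicate 2, 484 of 11330. The other way round, 79 of 11021 and 76 of 10749 genes at that level in the repeat had 0 reads in the first library. A level of 50 normalized counts is worth 58.9 and 52.9 reads in the repeats, and a count of 0 there allows up to 2.55 and 2.84 normalized counts, bounds for counting error only.

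Most of the genes lost in one RNA were not lost in the other. Of the genes at 0 in the repeat, 31 were shared, 13.7% of the 227 and 6.40% of the 484, where 4.27% of all genes at that level were lost in replicate 2 and 2.04% in replicate 1. Of the 227, 99 (43.6%) had at least 50 normalized counts in both libraries of KO replicate 2, and of the 484, 185 (38.2%) had so in both of KO replicate 1. Over all genes at that level in the first library these shares were 88.7% and 89.6%. In the 6 libraries of other genotypes, 52 (22.9%) and 150 (31.0%) had at least 50 in every library, against 88.0% and 86.2%.

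The largest losses were of genes seen in most other libraries. Focad, which encodes focadhesin, had 488 and 1019 normalized counts in the libraries of KO replicate 1 and 1066 in the first library of replicate 2, and 0 in its repeat, at least 376-fold lower. Ifit2, an interferon-induced antiviral gene, had 1505 and 1674 in replicate 1, 542 in the first library of replicate 2 and 0 in its repeat. Its level in the 6 other libraries was 1506 to 6622.

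Acadsb, a mitochondrial acyl-CoA dehydrogenase, had 788, 670.1 and 574 in the same 3 libraries and 0 in that repeat. In replicate 1 the largest loss was Abcb6, a porphyrin transporter of the ABC family, with 340 normalized counts in the first library and 0 in the repeat, and 506 and 536 in the libraries of replicate 2. Pex26, needed for protein import into peroxisomes, had 260.2 and 0 in replicate 1, and 302 and 559.9 in replicate 2. In these genes 1 library stood apart from the other 3 of the KO group.

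Some genes were at 0 in both repeats. Of 10609 genes with at least 50 normalized counts in both first libraries, 31 had 0 reads in both repeats, and 4 of 9858 had the reverse. Camkk1 (chromosome 11, 73019008 to 73042073), a kinase that activates calmodulin-dependent kinases, had 148 and 355 in the first libraries and was at least 58.3-fold and 125-fold lower in the repeats. Zfp54, a zinc finger gene, had 146 and 142 and then 0 and 0. In the 4 libraries of IL4-/- and IL4-/-KO, which were as deep as the repeats, Camkk1 had 187 to 544 normalized counts and Zfp54 had 111 to 323.

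Of the 31 genes, 6 had at least 50 normalized counts in all 6 libraries of other genotypes and all 31 in at least 1. The 4 genes with the reverse pattern were Efcc1, Apc2, Calr3 and Pnldc1. Efcc1 had 0 reads in both first libraries, 110.4 and 77.6 normalized counts in the repeats, and 0 in the 6 libraries of other genotypes. Pnldc1, an exonuclease that trims piRNAs in germ cells, had 52.7 and 64.3 in the repeats and at most 4.33 elsewhere. Apc2, a relative of the tumour suppressor APC, reached 87.4 in an IL4-/-KO library, and Calr3, a testis calreticulin, 31.0 there.

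Single genes were high in a repeat and at 0 or near it in the first library of that RNA. Dlg5, a scaffold protein of cell polarity, had 0 reads in the first library of replicate 1 and 392 normalized counts in its repeat, and 61.7 and 427 in replicate 2. Bmp2, a secreted growth factor, had 576 in the repeat of replicate 2 and 0 in the other 3 KO libraries. Lzts3, of which no KO library was at 0, had 1.31 and 567 in replicate 2 but 20.6 and 0.849 in replicate 1. The RNAs agreed in direction for Dlg5 and not for Lzts3.

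Some genes with few reads were far apart in both RNAs and not at 0 throughout a group. Among those lower in the repeats, Rusc2 had 182 and 190.4 normalized counts in the first libraries and 0 and 0.946 (1 read) in the repeats. Zfat, a zinc finger gene, had 144 and 138 against 0 and 0.946. Among those higher, Ptpru, a receptor tyrosine phosphatase, had 10.3 and 52.5 normalized counts in the first libraries and 332 and 611 in the repeats. Lrp5, a co-receptor for Wnt proteins, had 13.2 and 67.0 against 156 and 662. Maml3, a coactivator of Notch signalling, had 20.6 and 28.9 against 177 and 303. These 5 genes were named for large differences in both RNAs. In each of them the repeats stood apart from the first libraries, and none passed the limma test (adjusted p = 0.512 for each).

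Genes at 0 made up much of the 2-fold set on the lower side. Of the 803 genes at least 2-fold lower in both repeats, 307 were at 0 in both and 542 in at least 1. A gene at 0 in both repeats entered the test only where both first libraries reached the filter level. All 307 such genes were therefore lower by construction, as all 5 genes at 0 in both first libraries were higher. Of the 803 genes, 622 had a mean under 100 normalized counts. That was 24.6% of the 2528 genes at this level, against 4.75% (120 genes) on the higher side. Part of the 24.6% was thus fixed by the filter, and how much was not counted. At 100 to 1000 the shares were 3.04% lower and 3.59% higher, and at 1000 to 10000 0.307% and 1.05%. Over 10000, 0 of 401 genes were lower and 3 higher.

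The difference between libraries followed base composition, mostly in KO replicate 2. For 12739 genes (98.1%) the GC content and length of the longest annotated transcript were known. Genes were split by GC content into 10 groups of equal size. In the group with the lowest GC content (median 40.2%), the median log2 difference was -1.27 in replicate 2 and -0.16 in replicate 1. In the group with the highest (median 59.96%, range 58.3% to 82.2%) it was 0.80 and 0.10. The Spearman correlation across genes was 0.45 in replicate 2 and 0.090 in replicate 1. It was higher for abundant genes in replicate 2, from 0.086 under 100 normalized counts to 0.80 over 10000, where replicate 1 had 0.39.

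Both libraries of replicate 2 stood apart in their GC trend. Relative to the mean of the 10 libraries, the Spearman correlation of a gene's level with GC content was 0.51 in the repeat of replicate 2 and 0.38 in its first library, 0.044 and -0.023 in those of replicate 1, and -0.41 to 0.023 in the 6 others. With transcript length, the pair difference had a Spearman correlation of 0.12 in replicate 1 and 0.0020 in replicate 2. Among the 10% longest transcripts (median 7925 bases) the median difference was 0.25 and 0.06. Genes share their library, so these correlations are descriptions.

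**Figure D4:**
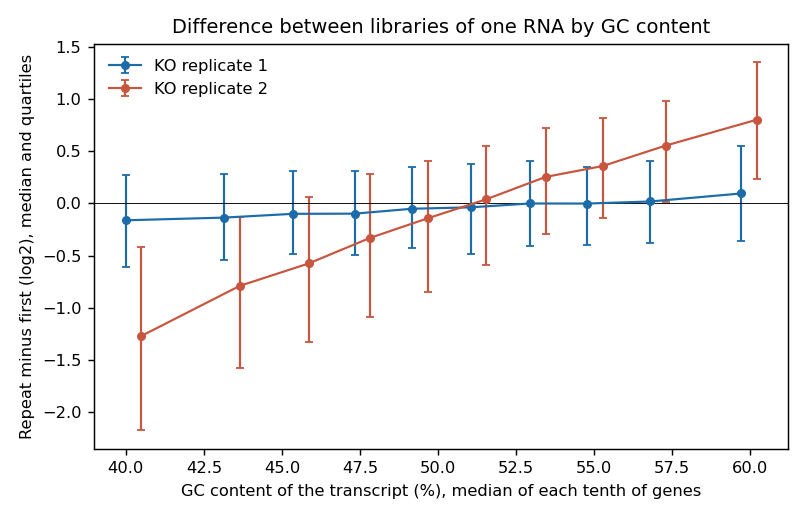
Median log2 difference of repeat minus first library (y, with quartiles as bars) in 10 groups of 12739 genes by GC content of the transcript (x, median of each group in %). KO replicate 2 runs from -1.27 to 0.80 across the groups and KO replicate 1 from -0.16 to 0.10.

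Replication-dependent histone genes and very long coding transcripts had the highest medians in both RNAs among lists with at least 10 tested members. Replication-dependent histone genes supply histones in S phase, and their mRNAs end in a stem-loop bound by the stem-loop binding protein rather than in a poly(A) tail. Of 39 tested members, 25 (64.1%) were higher in both repeats, 3 lower in both and 11 opposite. Over all genes, 3350 of 12987 (25.8%) were higher in both and 4048 (31.2%) lower. At least 2-fold higher in both were 10 of the 39 (25.6%), against 2.83% of all genes, and 0 were as far lower, against 6.18%. Under 100 normalized counts, 4.75% of all genes were as far higher and 24.6% as far lower. The median log2 differences of the 39 were 0.69 in replicate 1 and 1.10 in replicate 2, against -0.05 and -0.04 over all genes. With trends on GC content and length removed, the medians were 0.78 and 1.09, and under quantile normalization 1.85 and 2.53. No member passed the limma test.

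The stem-loop could be read in the annotated transcripts and is shown because it sets these mRNAs apart from polyadenylated ones. Among words of 16 bases in the listed transcripts (longest transcript per gene, GENCODE M21, mm10), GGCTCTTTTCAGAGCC was in the most histone types (4) and the most members (16 of 39). Its first 6 letters pair with its last 6, which makes the stem. It was on the sense strand of 17 of the 12739 transcripts searched (0.133%), 16 of them histone genes and 1 Trim17, and on the opposite strand of 0. The search was added after the data were seen. In the lines below capitals mark the word and the letters run 5′ to 3′ along the transcript.
Hist1h1e, chr13:23621777-23621802, minus strand: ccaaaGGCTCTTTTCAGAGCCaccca
Hist1h2ae, chr13:23570663-23570688, minus strand: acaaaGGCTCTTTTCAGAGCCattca
Hist1h1c, chr13:23739507-23739532, plus strand: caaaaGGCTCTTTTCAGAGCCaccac
Hist3h2ba, chr11:58949344-58949369, plus strand: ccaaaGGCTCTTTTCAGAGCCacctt

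The annotated transcripts of these 4 genes run on for 1153, 151, 840 and 169 bases after the stem-loop, so that longer forms of these mRNAs are annotated. Hist1h1e, a linker histone, had 298 and 290.2 normalized counts in the first libraries and 775 and 1386 in the repeats. Hist1h2ae, of histone H2A, had 309 and 314 against 669 and 929.7. Hist3h2ba, of histone H2B, had 103 and 179.9 against 182 and 304. For each of the 3 genes both repeats lay above both first libraries.

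Hist1h1c, another linker histone, had 799.8 and 1346 normalized counts in the first libraries and 1187 and 3779 in the repeats, so that its groups overlapped. The largest smaller difference in the list was that of Hist1h3i, with 5.88 and 9.19 against 94.3 and 143. The 17 genes with the word, Trim17 among them, had median differences of 0.93 and 1.10, and the 23 listed histone genes without it 0.62 and 1.01. The search took only this exact word, so a histone gene without it may still hold a stem-loop of other bases. Of the genes with the word, 11 were higher in both repeats and 1 was lower in both. Replacement histones, whose mRNAs are polyadenylated, were listed after the data were seen: of 10 tested, 3 were higher in both, 3 lower in both, and the medians were -0.14 and 0.15. Histone genes of one type are near-identical copies, so the reads of single members are uncertain, and most had few reads (10 of the 39 had a mean of at least 100 normalized counts).

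Most very long coding transcripts had higher values in both repeats, and no member passed the limma test. Of 61 tested, 42 (68.9%) were higher in both, 5 (8.20%) lower in both and 14 opposite, against 25.8% higher and 31.2% lower over all genes. At least 2-fold higher in both were 8 (13.1%, against 2.83% of all genes), and 0 were as far lower (against 6.18%). The medians were 0.72 and 0.53, and 0.25 and 0.09 with the trends on length and GC content removed. Kmt2a, a histone methyltransferase, had 1081 and 926 normalized counts in the first libraries and 2609 and 2461 in the repeats. Ubr4, a ubiquitin ligase, had 1382 and 1366 against 3086 and 3260.2. Utrn, the dystrophin relative utrophin, had 1898 and 1727 against 4741 and 3069. In these genes both repeats lay above both first libraries.

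Lists of short and highly expressed housekeeping genes had smaller medians. Of 80 genes of cytosolic ribosomal proteins, 47 (58.8%) were higher in both repeats and 6 (7.5%) lower in both. Over all genes these shares were 25.8% and 31.2%. The ribosomal protein medians were 0.31 and 0.08, and the second was -0.14 under quantile normalization. Rps10, of the small subunit, had 2005 and 2559 normalized counts in the first libraries and 3429 and 5232 in the repeats. Of 74 genes of oxidative phosphorylation, 11 (14.9%) were higher in both and 42 (56.8%) lower in both (medians -0.12 and -0.36). Ndufa5, of complex I, had 681 and 838 against 432 and 358. Of 34 proteasome genes, 4 (11.8%) were higher and 16 (47.1%) lower in both (medians -0.12 and -0.22). With the trends on GC content and length removed, the medians were 0.41 and 0.19, -0.02 and -0.13, and 0.04 and -0.11 in the order of the lists; the proteasome median in replicate 2 was -0.49 under quantile normalization. None of these 3 lists had a member that passed the limma test or was at least 2-fold apart in both RNAs. All their tested members had a mean of at least 100 normalized counts. Of all genes at 100 to 1000, 3.59% were that far higher and 3.04% lower, and at 1000 to 10000 1.05% and 0.307%.

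Long noncoding RNAs of the nucleus differed between the RNAs. Of 15 tested, 3 (20%) were higher in both repeats, 3 (20%) lower in both and 9 opposite, against 25.8% higher and 31.2% lower over all genes. The list had medians of 0.24 and -0.98, the second -0.22 with the trends removed and -0.36 under quantile normalization. Tug1 had 1363 and 1751 normalized counts in replicate 1, and 1366 and 157 in replicate 2. Firre, which shapes chromosome structure, had 143 and 78.8 in the first libraries and 0.849 and 17.0 in the repeats, the first of which was 1 read. Genes encoded in the mitochondrial genome had a list too, but none of it matched a row.

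Genes that define T cells had median differences near those of all genes. Of 23 core T cell genes, 6 (26.1%) were higher in both repeats, 9 (39.1%) lower in both and 8 opposite. Over all genes 25.8% were higher in both and 31.2% lower. At least 2-fold apart in both were 0 of the 23, all with a mean of at least 100 normalized counts. Of the 4968 genes with a mean of 1000 or more, 51 were that far higher in both and 14 that far lower. The core T cell medians were -0.09 and -0.09. With the trends removed the medians were 0.04 and 0.02, and under quantile normalization -0.06 and -0.45. Bcl11b, a transcription factor of T cell identity, had 3067 and 3396 normalized counts in the first libraries and 4733 and 11288 in the repeats. Cd4, the co-receptor that defines helper cells, had 29665 and 24236 against 37308 and 28722.

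No cytotoxic or NK receptor gene passed the limma test. Of 23 tested, 0 were higher in both repeats, 14 (60.9%) lower in both and 7 opposite, against 25.8% higher and 31.2% lower over all genes, and the medians were -0.15 in replicate 1 and -0.86 in replicate 2. With the trends on GC content and length removed the medians were -0.06 and -0.22, and the median GC content of the list was 46.2%, against 50.3% over all genes. Klrk1, the activating receptor NKG2D, had 639.5 and 747 normalized counts in the first libraries and 255 and 217 in the repeats. Klrc1, of the inhibitory NKG2 family, had 1345 and 913 in replicate 1, and 668 and 28.4 in replicate 2. Gzmb, the protease granzyme B, had 80953 and 72112 in replicate 1 and 5429 and 2436 in replicate 2, so that the RNAs differed more than the libraries.

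In 3 other T cell lists, none with a member past the test, the median was lower in replicate 2 than in replicate 1. Of 18 type 2 helper genes, 1 (5.56%) was higher in both repeats and 12 (66.7%) lower in both, against 25.8% and 31.2% over all genes. The type 2 medians were -0.17 and -0.58, and -0.07 and -0.49 with the trends removed. Of 30 effector cytokine genes, 6 (20%) were higher and 16 (53.3%) lower in both (-0.04 and -0.50, and 0.06 and 0.04 with the trends removed). Checkpoint receptors had 4 (25%) higher and 7 (43.8%) lower of 16 (-0.08 and -0.36), and their medians were above 0 with the trends removed (0.23 and 0.04). In the other direction, of 20 genes of the naive state and homing, 11 (55%) were higher in both and 3 (15%) lower in both (0.15 and 0.20). Tcf7, a transcription factor of naive and memory cells, had 5068 and 11200.5 normalized counts in the first libraries and 6862 and 15643 in the repeats.

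Immediate early and heat shock genes respond within minutes to handling and heat. Of 36, 17 (47.2%) were higher in both repeats and 6 (16.7%) lower in both, against 25.8% and 31.2% over all genes. The medians of the 36 were 0.00 in replicate 1 and 0.46 in replicate 2. The second was 0.23 with the trends removed and 0.18 under quantile normalization, and no member passed the limma test. Fosb, of the AP-1 family, had 2611 and 4415 normalized counts in the first libraries and 3905 and 11995 in the repeats. Dnaja1, a heat shock cochaperone, had 7555 and 3856 against 4522 and 1593. The labels give both libraries of a pair as made from one RNA, and the cause of these differences was not tested.

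TGF-beta response genes had 8 (30.8%) higher and 10 (38.5%) lower in both repeats of 26, near the 25.8% and 31.2% over all genes, and no member passed the limma test. The medians were -0.03 and -0.16. Members at least 2-fold lower in both numbered 4 (15.4%), against 6.18% of all genes, and 0 were as far higher, against 2.83%. The 4 were Smad6, Ski, Pmepa1 and Ltbp4. Smad6, an inhibitory SMAD, had 36.8 and 68.3 normalized counts in the first libraries and 0 in both repeats. Smad6 reached the filter level only through the first libraries, so the filter alone fixed its direction. Ltbp4, which holds latent TGF-beta in the matrix, had 36.8 and 114 against 7.64 and 48.2. Smad7, another inhibitory SMAD, had 729 and 989 in the first libraries and 964 and 3011 in the repeats.

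RNA of other cell types was read in all 4 libraries. The summed level of 35 listed genes of mammary epithelium was 141669 and 236915 normalized counts in the first libraries and 143614 and 285171 in the repeats. For 28 listed macrophage and monocyte genes it was 77709.8 and 85373 against 74023 and 89523. Of the epithelial genes, 3 and 3 were at 0 in the first libraries and 4 and 6 in the repeats, and of the macrophage genes 2 and 1 and then 4 and 0. For 21 listed neutrophil genes the sum was 17995 and 11285 in the first libraries and 18678 and 20334 in the repeats, and the number at 0 was 2 and 4 and then 4 and 10. Of 14 listed dendritic cell genes 3 and 1 were at 0 in the first libraries and 8 and 3 in the repeats, with sums of 9553 and 10216 against 7882 and 12566. Of 23 listed fibroblast and matrix genes, 15 and 5 were at 0 in the first libraries and 6 and 9 in the repeats. Over all 17363 named genes, 14131 and 14421 had at least 1 read in the first libraries and 12891 and 12459 in the repeats. The part of other cell types in the differences was not tested. Single members were lost, such as Adgre1, the macrophage marker F4/80, with 45.6 and 229 in the first libraries and 0 and 0.946 (1 read) in the repeats. In bulk samples fewer cells of a type and less RNA per cell cannot be told apart, but the libraries of a pair share the cells.

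**Figure D5:**
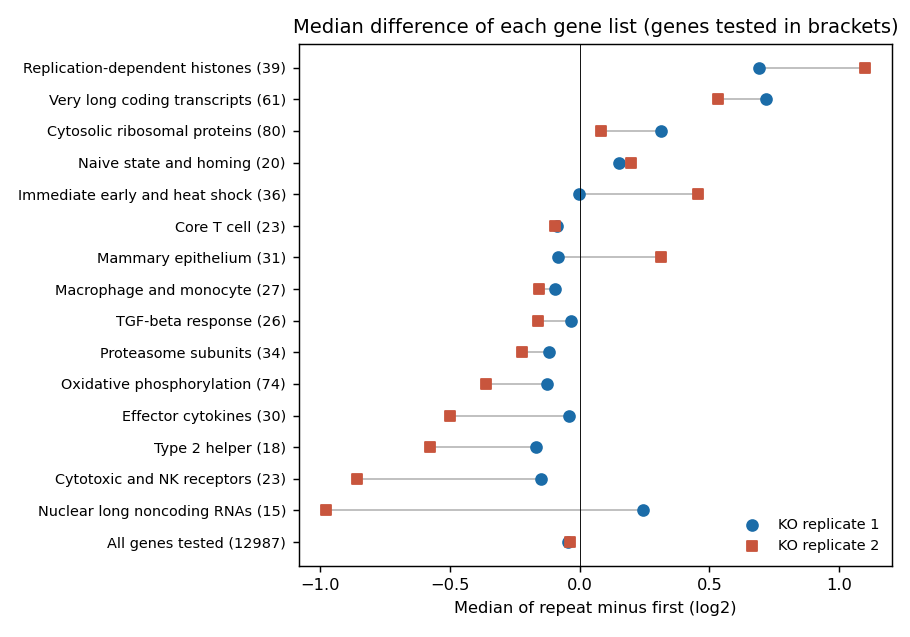
Median log2 difference of repeat minus first library (x) in KO replicate 1 (circles) and KO replicate 2 (squares) for 15 gene lists and for all genes, with the number of genes tested in brackets. Histones and very long transcripts lie right of 0 in both RNAs, and of the lists drawn nuclear long noncoding RNAs (-0.98) and cytotoxic genes (-0.86) lie furthest left in replicate 2.

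The other lists, 13 with at least 5 tested members and 3 smaller ones, had 0 members past the test. The 13 had 56 of 232 tested entries higher in both repeats and 82 lower in both, near the 25.8% and 31.2% over all genes. The medians of the 13 lists ran from -1.74 to 0.38 in replicate 1 and from -1.27 to 0.25 in replicate 2. Of these lists, 5 had medians of the same sign in both.

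The genes that comparisons of genotypes turn on were read in each library. The largest shift was that of Pmepa1 (chromosome 2, 173224458 to 173276533), a feedback inhibitor of TGF-beta signalling. Its log2 difference was -1.62 ± 0.43 (moderated SE, n = 2 RNAs, limma adjusted p = 0.512). Ahr, the aryl hydrocarbon receptor, had 439.6 and 489 normalized counts in the first libraries and 922 and 881 in the repeats. The log2 difference of Ahr was 0.96 ± 0.47 (moderated SE, n = 2 RNAs, limma adjusted p = 0.551). In both genes the groups did not overlap.

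Type 2 cytokine genes, which activate eosinophils and B cells, differed mostly in replicate 2. Il4 had 426 and 523 normalized counts in the first libraries and 352 and 236 in the repeats. It had 107 and 276 in WT, and reads of it were also present in the libraries labelled IL4-/- (97.2 and 75.4) and IL4-/-KO (98.7 and 39.7); which part of the gene that allele lacks is not given in the sources used here. Il5 had 538 and 512 in replicate 1, and 4988 and 2332 in replicate 2. Il13 had 5.88 and 15.3 in replicate 1, and 118 and 375 in replicate 2. For Il5 and Il13 the RNAs differed by more than the libraries of one RNA.

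Mmp9, a gelatinase, had 3205 and 3473 in replicate 1, and 4661 and 11747 in replicate 2. Csf2, the cytokine GM-CSF, had 2158 and 1684 in replicate 1, and 3114 and 2099 in replicate 2. Klrg1, an inhibitory receptor of differentiated effector cells, had 2976 and 2745 in replicate 1, and 5493 and 4928 in replicate 2. Nt5e, the ectoenzyme CD73, had 254 and 299, and 633 and 658. Tgfbr2 (chromosome 9, 116084293 to 116175360) had 5828 and 7632 in replicate 1 and 5803 and 9442 in replicate 2; its repeats lay above its first libraries. The total of the gene includes sequence outside the deleted part and so checks the genotype little.

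Against WT, the choice of KO library changed the size of a difference but not its sign in most of these genes. The log2 difference of the KO first libraries from WT and that of the repeats were -2.18 and -3.81 for Pmepa1, -3.03 and -2.08 for Ahr, and -3.40 and -3.25 for Nt5e. They were 5.26 and 5.98 for Mmp9, 3.98 and 3.52 for Csf2, and 1.45 and 0.75 for Il4. For Tgfbr2 they were -0.44 and 0.11, with opposite signs. The 2 values share the WT libraries and are given side by side with no test.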

How the data were processed

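Reads from 10 libraries of sorted mouse T cells were compared within KO replicates. Per the submitters' processing notes, bcl2fastq 2.18.0, STAR and DESeq2 were used with build mm10; the counter, its annotation, and how strand and multimapped reads were treated are not given in the sources used here, so reads of overlapping genes cannot be told apart. The deposited signal of a gene is its number of reads over the library's size factor, and whole reads were recovered within 0.001. A read was worth 0.849 to 1.47 normalized counts in the KO libraries. A value of 0 allows 3 reads. Of 17370 rows, 7 had no name and were left out.

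The test was limma 3.58.1 (R 4.3.3) with a variance trend on log2(normalized count + 1), which understates the change of low genes, over the 4 KO libraries with the replicate as a block, two-sided, with Benjamini-Hochberg adjustment over 12987 genes at 0.05. The fit had 1 residual and 7.23 prior degrees of freedom. The pairing comes from the labels, which give each repeat as made from the RNA of the same replicate; over genes, the difference between replicates in the first libraries and in the repeats had a Pearson correlation of 0.41. Alternatives covered pseudocounts, filters, scaling, the block, thinning to equal depth, removal of GC and length trends, edgeR 4.0.16, DESeq2 1.42.0 and leaving out each RNA.

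The members and gene lists (33 lists) were chosen with earlier results of these data known. Named genes were those with the largest smaller difference of both pairs at 50 normalized counts or more, 1 per list, the 4 largest differences each way in each RNA, and 11 genes of the genotype comparisons. Abundant genes, reference genes, other list members and replacement histones were added after their values were seen. Since 0 genes passed, genes at least 2-fold apart in both RNAs were followed into other genotypes. Positions and transcripts are from GENCODE M21. The pipeline was tested on simulated data. Figures were drawn with matplotlib 3.10.9.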

Additional observations from a re-analysis of the deposited data

How the results depend on the processing

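Preparation, depth and any sequencing run cannot be told apart within a pair, and 2 RNAs limit the test. With reads thinned to the smallest total, 371 genes were at least 2-fold higher and 808 lower in both repeats. Without the replicate block, 0 genes were called in each direction (135 and 453 at an unadjusted p under 0.05), as with it.

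Genes called higher numbered 0 in the test as run, 1 with a pseudocount of 5, 42 with no filter, 18 with DESeq2 and 1 with GC and length trends removed. Genes called lower numbered 0 as run, 2 with a pseudocount of 5, 51 with no filter, 1 with a filter at 50 normalized counts, 1 with quantile normalization, 19 with DESeq2, 3 with the trends removed, and 0 to 2 when 1 RNA was left out, the 2 without replicate 1. Leaving out an RNA left 1 first and 1 repeat library, with the spread taken from the replicates of the other 3 genotypes, so these 2 fits assume that KO libraries vary like those. Irf2bp2 was the gene called under the filter at 50 and quantile normalization. All 37 genes called by DESeq2 had an unadjusted limma p under 0.05, and 18 of them were among the 65 abundant genes.

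Genes at least 2-fold higher in both repeats numbered 368 as run and 785 with quantile normalization, and 1271 to 1930 when 1 RNA was left out. Those lower numbered 803 as run, 1209 with no filter, 342 with a filter at 50, 442 with quantile normalization, and 1746 to 3281 when 1 RNA was left out. The share of higher genes was 31.4% as run, 48.2% with the filter at 50 and 64.0% with quantile normalization.

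Of 133 named genes followed by their mean difference over both RNAs under 15 alternatives, 8 changed sign in 1 alternative each. Another 15 genes were named for their difference in 1 RNA, which kept its sign under the 10 alternatives that gave it; in 12 of them the other RNA had the opposite sign, so that leaving out the RNA of choice turns the direction. With GC and length trends removed the log2 differences became 0.066 for Psmd14, 0.091 for Hmgb2, 0.086 for Il4, 0.20 for Klrg1, 0.14 for Csf2, 0.22 for B2m and 0.11 for Hprt; leaving out 1 RNA gave Pgk1 values from -0.38 to 0.076, the second without replicate 2. The cause was not tested.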
